A study of Mikania micrantha with 15 samples.

Results

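In the climbing vine Mikania micrantha, a fast-growing member of the daisy family, 104 of 41487 gene IDs were expressed at similar levels in flower, leaf and shoot apex and were low in both stem and root. They made up 0.251% of the IDs. Expression was taken as CPM, the reads of a gene scaled to a common library total. An ID was a member when the lowest of its flower, leaf and shoot apex means was at least 10 CPM and at least 4 times the higher of its stem and root means, and when those 3 means lay within less than 3-fold of each other. The members were thus chosen by the 5 tissue means themselves, so the contrast of flower, leaf and shoot apex with stem and root is given as a description, with no test.

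The groups were flower, leaf, shoot apex (the tip where the shoot grows), stem and root of wild-type vines, with 3 libraries each and 15 in all. All came from cuttings that first formed roots of 4 to 5 cm in water. The plants were then grown for 60 days in Hoagland medium, which supplies mineral nutrients, at 24 °C, in days of 16 h light and nights of 8 h. No tissue had a treatment or genotype of its own. The labels do not say whether replicates were separate plants, so p-values measure only how far these libraries spread, which may be technical variation. Sequencing depth, as the sum of counts, was 9567064 to 11770796 counts in flower, 7952050 to 12001006 in leaf, 11023970 to 12817396 in shoot apex, 5445218 to 9721732 in stem and 3777165 to 10015399 in root. Stem replicate 3 and root replicate 1 differed more from the other libraries of their tissues than those did from each other. In leaf all 3 libraries differed from each other, replicates 1 and 2 most. Leaf replicate 1 was the lowest leaf library in 65 of the 104 members on CPM, and in 56 with the TMM scaling described below. The share over all genes was not computed, so nothing is read from these counts. The counts of calls and of members are also given without leaf replicate 1, stem replicate 3 and root replicate 1.

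Leaves are the main site of photosynthesis and of gas exchange. The shoot apex holds the meristem, the dividing tissue from which leaves and stem arise, together with the youngest leaves, and flowers are built of organs that are modified leaves. Stem and root share the tasks of transport and support, and the root takes up water and minerals out of the light. The table holds gene IDs without names or products, so no member can be given a function, and the tissue labels could not be checked against marker genes. In whole organs, fewer cells that express a gene and less RNA per cell cannot be told apart. CPM is not corrected for transcript length, so levels are compared between tissues for a gene and not between genes.

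Among the members the lowest of the 3 means had a median of 26.3 CPM and reached 140.5 CPM. It was at least 50 CPM in 18 members and at least 100 CPM in 3. Tissue means over the 104 members had a median of 34.0 CPM in flower, with a range of 10.1 to 182, of 36.6 CPM in leaf (10.4 to 187) and of 40.1 CPM in shoot apex (10.6 to 247). In stem the median was 3.62 CPM (0.103 to 23.6) and in root 1.26 CPM (0 to 16.7). Most members lay close to the 4-fold limit. The ratio of the lowest of the 3 means to the higher of the stem and root means had a median of 5.60, was at least 8 in 25 members and at least 16 in 10, and reached 71.2. Here a tissue with no read counts at a floor of 3 counts over its 3 libraries.

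**Figure D1:**
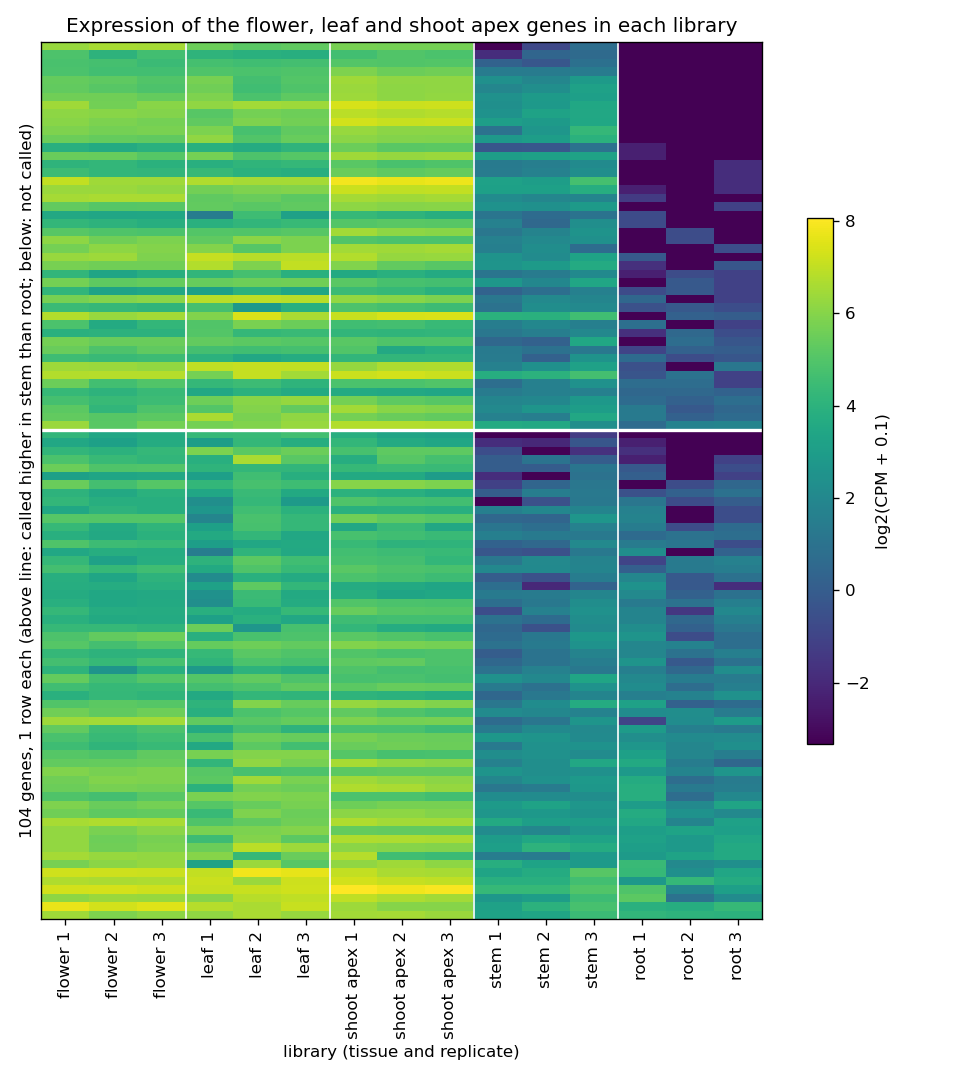
Expression of the 104 genes (rows) in the 15 libraries (columns), coloured by log2(CPM + 0.1), with the 46 genes called higher in stem than in root above the white line and the 58 not called below it, each block sorted by root mean. The 9 flower, leaf and shoot apex columns are bright throughout, stem is darker, and the top 12 rows have no read in any root library.

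The 2 members with the highest lowest-of-3 mean were read in every library. E3N88_36883 had 158, 159.6 and 147 CPM in flower replicates 1, 2 and 3, 134, 137 and 151 CPM in leaf and 269, 225 and 247 CPM in shoot apex, against 20.02, 19.7 and 31.2 CPM in stem and 30.4, 3.71 and 8.60 CPM in root. Its lowest leaf library was still above its highest stem or root library by a wide margin, while root replicate 1 lay far above the other root libraries. E3N88_12622 had 152, 145 and 141 CPM in flower, 130.0, 229 and 202 CPM in leaf and 131, 98.0 and 95.7 CPM in shoot apex, against 10.1, 12.6 and 34.97 CPM in stem and 19.9, 5.03 and 10.6 CPM in root. Here stem replicate 3 and root replicate 1 were the high libraries of their tissues.

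The members with the largest ratios were close to absent in stem and root. E3N88_30209 had 17.8, 10.8 and 13.0 CPM in flower, 19.7, 20.2 and 24.4 CPM in leaf and 14.1, 10.1 and 9.07 CPM in shoot apex, against 0, 0 and 0.309 CPM in stem and no read in root. Its lowest mean, in shoot apex, was 71.2 times the root floor of 0.156 CPM, which lies above its stem mean of 0.103 CPM. E3N88_19227 had 18.3, 15.8 and 19.2 CPM in flower, 56.5, 36.6 and 45.5 CPM in leaf and 27.0, 38.2 and 38.2 CPM in shoot apex, against 0.551, 0 and 0.206 CPM in stem and 0.200, 0 and 0 CPM in root. Both were read in all 9 libraries of the first 3 organs, and in at most 3 of the 6 stem and root libraries.

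The limits of the rule cut through a continuum of patterns. Of 13311 IDs with at least 10 CPM in all 3 organs, 151 were also at least 4 times their stem and root means, and 47 of these were left out because the 3 organs differed by 3-fold or more. At the 4-fold limit, E3N88_20948 was inside at a ratio of 4.02 and E3N88_25429 outside at 3.99. At the 10 CPM limit, E3N88_21853 was inside with a lowest mean of 10.1 CPM and E3N88_14622 outside with 9.71 CPM. At the 3-fold limit, E3N88_25833 was inside, with 145 CPM in shoot apex and 49.1 CPM in leaf, a ratio of 2.96, and E3N88_25849 was outside at 3.08, with 82.5 and 26.8 CPM. Neither of the last pair had a read in root. With CPM scaled by TMM (trimmed mean of M-values, which corrects for libraries in which a few genes take many reads), 76 IDs met the rule, 72 of them members.

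The libraries were also compared singly. In 101 of the 104 members each of the 9 flower, leaf and shoot apex libraries exceeded each of the 6 stem and root libraries, a pattern seen in 8.6% of the 27055 genes tested. The rule used these values, so nothing is read from that difference. The 3 exceptions were E3N88_02747, E3N88_14268 and E3N88_33067, named after their values were seen. In each, the lowest of the 9 libraries was leaf replicate 1. In E3N88_14268 leaf replicate 1 had 9.43 CPM, against 21.1 CPM in root replicate 1. Without leaf replicate 1, stem replicate 3 and root replicate 1, no member overlapped.

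The same pattern was then read in libraries that had not been used to choose the genes. With the rule applied to 2 libraries per tissue, 107 IDs were chosen without replicate 1, 83 without replicate 2 and 145 without replicate 3, of which 74, 74 and 90 were members. In the libraries left out, the lowest of flower, leaf and shoot apex exceeded both stem and root in 89 of the 107, in 83 of the 83 and in 141 of the 145. It was at least 4 times as high in 47, 62 and 49 of them. The full rule was met by 39, 57 and 46. The direction recurred in most of the IDs each time, and the 4-fold size in most of them only when replicate 2 was left out. As replicates may be technical, the libraries left out may not be independent of those used. The share of all IDs with this direction was not computed, so these counts describe only recurrence between libraries. The median ratio in the libraries left out was 3.21 for replicate 1, 6.10 for replicate 2 and 3.20 for replicate 3, over the IDs with a stem or root read there. Replicate 1 includes the high root library and replicate 3 the high stem library.

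Together the 104 genes took 0.444 ± 0.0331% of the counts in flower, 0.445 ± 0.0498% in leaf and 0.574 ± 0.0429% in shoot apex, against 0.0555 ± 0.0185% in stem and 0.0294 ± 0.0113% in root (SD, n = 3 each). The shoot apex libraries, at 0.541 to 0.623%, all lay above the flower libraries, at 0.416 to 0.481%, and the leaf libraries, at 0.39 to 0.487%. Stem had 0.0420, 0.0479 and 0.0765% in replicates 1, 2 and 3, and root 0.0420, 0.0200 and 0.0262%, so stem replicate 1 and root replicate 1 were level. Without the 10 members with the most counts, the mean shares were 0.333% in flower, 0.327% in leaf, 0.430% in shoot apex, 0.0400% in stem and 0.0222% in root. The lead of shoot apex over leaf depended on the scaling. With TMM the members summed to 4688 to 5287 CPM in shoot apex and to 4236 to 4710 CPM in leaf, which overlap. Flower, at 3875 to 4055 CPM, lay below both.

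**Figure D2:**
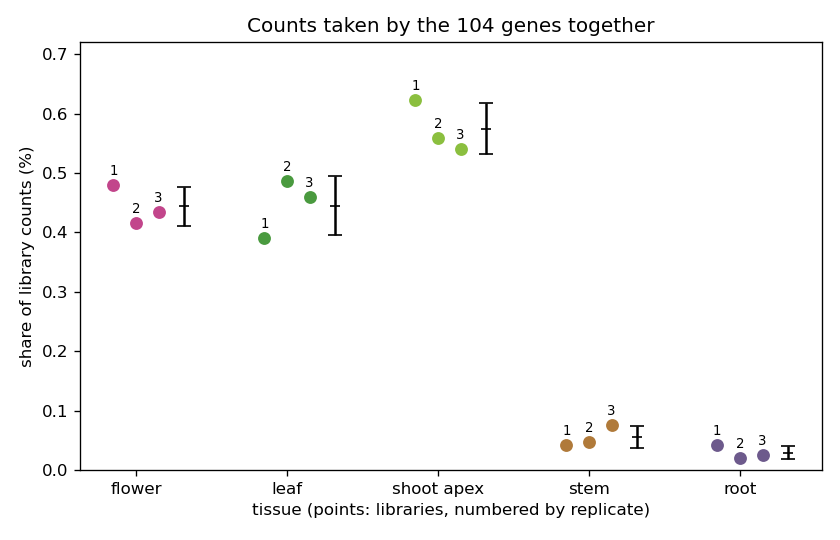
Share of each library's counts taken by the 104 genes together (points, numbered by replicate; y axis in percent), with the mean and SD of each tissue beside the points (n = 3). Shoot apex lies highest at 0.541 to 0.623% and root lowest at 0.0200 to 0.0420%, and stem replicate 3 and root replicate 1 are the top libraries of their tissues.

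The rule held the flower, leaf and shoot apex means of each member within less than 3-fold, so their evenness is no finding. The highest of the 3 means was 1.88 times the lowest at the median and less than 2 times in 63 members. It was in shoot apex in 57 members, in leaf in 26 and in flower in 21. With TMM it was in shoot apex in 52, in leaf in 34 and in flower in 18. E3N88_30661 was the most even of the members with at least 100 CPM in all 3 organs. It had 103, 97.2 and 100.2 CPM in flower, 145, 80.7 and 146 CPM in leaf and 155, 136 and 125 CPM in shoot apex, against 14.7, 14.6 and 24.8 CPM in stem and 6.69, 19.1 and 12.6 CPM in root.

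Differences among the 3 organs were tested gene by gene in edgeR's quasi-likelihood model of all 15 libraries and 27055 genes, which included all 104 members. A gene was called at a Benjamini-Hochberg adjusted p under 0.05 and at least 2-fold. Because the rule held the 3 means within 3-fold, the number of these calls is read against nothing. The model estimated the spread of each gene over all 15 libraries, so stem and root libraries also enter these p-values. For leaf minus shoot apex in E3N88_01740, the edgeR adjusted p was 0.0126, and 7.63e-05 without root replicate 1. Fits to the 6 libraries of each pair called 2 members higher and 9 lower in flower than leaf, against 4996 and 4368 of 25208 genes. They called 3 higher and 10 lower in flower than shoot apex, against 5096 and 3627 of 25652 genes. In leaf than shoot apex they called 11 higher and 5 lower, against 4699 and 4439 of 24272 genes. In these fits 34, 71 and 50 members had an unadjusted edgeR p under 0.05, against 29, 39 and 47 in the model of all 15. The share of all genes under that p was not computed. With all 15 libraries, no call was made in any of the 3 pairs for 71 members, in 1 pair for 24 and in 2 pairs for 9. Shoot apex was called above both flower and leaf in 3 members, and leaf above both flower and shoot apex in 4. E3N88_34789 was the 1 member called lower in shoot apex than in both other organs, and E3N88_08300 the 1 called lower in leaf than in both. The shares of all genes tested in these combined classes were not computed, so the counts only describe the members.

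**Figure D3:**
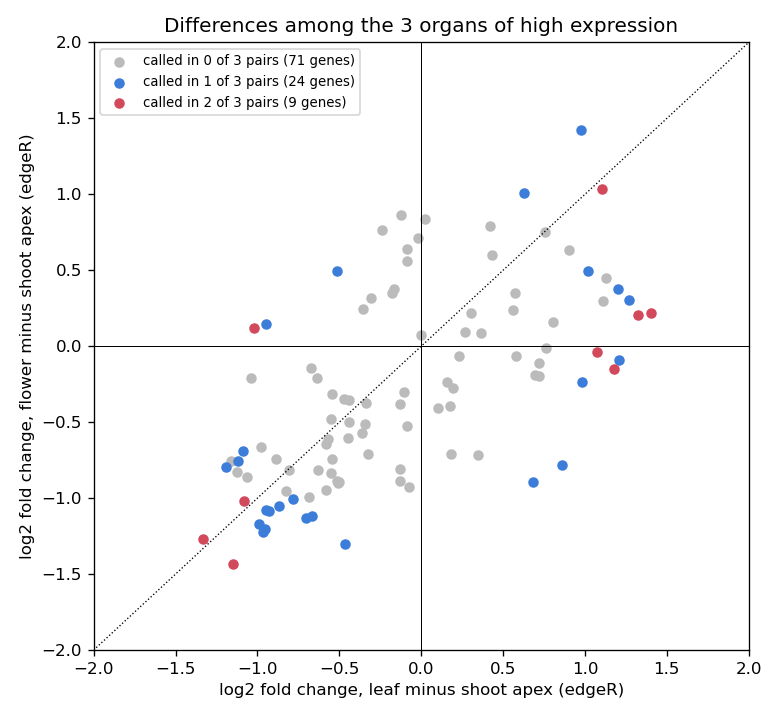
Log2 fold change of flower minus shoot apex (y axis) against leaf minus shoot apex (x axis) for the 104 genes, coloured by the number of the 3 organ pairs in which the gene was called. The 71 genes with no call fill the centre, and more genes lie in the lower left, where shoot apex was above both other organs, than in the upper right.

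Between flower and leaf, 3 members were called higher in flower and 8 lower, where 20.2% and 15.7% of all genes tested were. The log2 fold change of flower minus leaf had a median of -0.19 over the members and of 0.09 over all genes tested. E3N88_08300 had 94.2, 106 and 95.5 CPM in flower and 30.9, 39.2 and 48.4 CPM in leaf, with no overlap (log2 fold change 1.14 ± 0.28 SE, edgeR adjusted p = 0.00313). E3N88_16944 had 91.8, 98.3 and 98.7 CPM in flower and 38.9, 44.7 and 36.2 CPM in leaf (1.09 ± 0.21 SE, edgeR adjusted p = 0.000662). Both were in shoot apex near their flower level, at 95.01 and 90.97 CPM. In the other direction, E3N88_32433 had 26.0, 20.5 and 22.4 CPM in flower and 46.9, 65.6 and 77.0 CPM in leaf (-1.64 ± 0.23 SE, edgeR adjusted p = 3.34e-05). E3N88_19227, shown above for its large ratio, had no overlap between flower and leaf either (-1.58 ± 0.33 SE, edgeR adjusted p = 0.00102). With plain library totals in place of TMM, 5 members were called higher in flower and 4 lower, and the median of all genes moved to 0.26. Without flower replicate 2, 1 was called higher (E3N88_16944 missed 2-fold, at a log2 fold change of 0.996), and without leaf replicate 3, 5 were called lower.

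Between flower and shoot apex, 3 members were called higher in flower and 13 lower, against 17.5% and 13.6% of all genes tested. The median log2 fold change of flower minus shoot apex was -0.35 over the members and -0.03 over all genes tested. E3N88_06673 had 206, 159 and 181 CPM in flower and 84.4, 64.3 and 63.4 CPM in shoot apex, with leaf between them at 117 ± 20.7 CPM (SD, n = 3). The change of flower minus shoot apex was 1.42 ± 0.25 on the log2 scale (SE, edgeR adjusted p = 0.000419). E3N88_34789 had 70.2, 48.7 and 56.8 CPM in flower and 31.8, 28.9 and 28.3 CPM in shoot apex (1.04 ± 0.28 SE, edgeR adjusted p = 0.00758). Of the members lower in flower, E3N88_39264 had 14.6, 12.3 and 14.98 CPM in flower and 46.0, 35.03 and 37.0 CPM in shoot apex (-1.43 ± 0.26 SE, edgeR adjusted p = 0.000564). E3N88_07936 had 36.7, 18.0 and 29.9 CPM in flower and 89.99, 66.6 and 60.0 CPM in shoot apex (-1.30 ± 0.29 SE, edgeR adjusted p = 0.00204). None of these 4 members overlapped between the 2 organs. With plain library totals the calls were 1 higher and 14 lower. E3N88_34789 then missed 2-fold, at 0.98, and also without flower replicate 1, at 0.96, where 1 member was called higher. Without flower replicate 2, flower replicate 3 or shoot apex replicate 1, 8, 6 and 7 were called lower.

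Between leaf and shoot apex, 8 members were called higher in leaf and 7 lower, against 17.2% and 18.3% of all genes tested. Which direction held more depended on the scaling and on single libraries. The calls were 3 higher and 19 lower with plain library totals, where all genes tested had a median of -0.30 in place of -0.06, and 11 higher and 5 lower with RLE size factors (the median ratio of each library to a mean library). E3N88_36910 had 108, 58.8 and 128 CPM in leaf and 60.2, 40.3 and 34.0 CPM in shoot apex, where leaf replicate 2 lay within the shoot apex range (log2 fold change 1.40 ± 0.33 SE, edgeR adjusted p = 0.00289). E3N88_01740 had 54.5, 61.1 and 57.4 CPM in leaf and 28.7, 28.6 and 24.5 CPM in shoot apex (1.32 ± 0.40 SE, edgeR adjusted p = 0.0126). E3N88_25833 had 39.1, 57.5 and 50.6 CPM in leaf and 156, 137 and 143 CPM in shoot apex (-1.33 ± 0.17 SE, edgeR adjusted p = 3.08e-05), and its flower libraries, at 50.8 to 65.6 CPM, lay near leaf. E3N88_20206 had 18.6, 26.7 and 22.8 CPM in leaf and 63.0, 63.6 and 57.4 CPM in shoot apex (-1.19 ± 0.39 SE, edgeR adjusted p = 0.021). It was no longer called without leaf replicate 3 or without any 1 of the shoot apex libraries, at edgeR adjusted p of 0.0598 to 0.0775, and over all alternatives its adjusted p was 5.43e-05 to 0.0775. Without shoot apex replicate 1 the counts were 14 higher and 2 lower, and without shoot apex replicate 3, 4 were lower. Without leaf replicate 1 they were 9 higher and 10 lower.

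Between stem and root, the rule used both means, through a ceiling on the higher of them, and fixed no direction. The calls are therefore given as a description of the members, and nothing is read from how their number compares with that of all genes. Of the 104 members, 46 were called higher in stem than in root, 44.2%, against 15.4% of all genes tested, and 0 lower, against 13.1%. Lower in stem at an unadjusted p under 0.05 were 2 members, and DESeq2 called 2 members lower and 47 higher. The median log2 fold change of stem minus root was 1.07 over the members and 0 over all genes tested. With members that had no root read set at the root floor, it was 1.04. The stem mean was above the root mean in 81 members, and in 78 with TMM.

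In the 46 called higher in stem, the means were 0.699 to 18.2 CPM in stem, with a median of 4.29, and 0 to 2.72 CPM in root, with a median of 0.176. In 43 of the 46 each stem library exceeded each root library. In the 58 not called, the medians were 3.31 CPM in stem and 3.01 CPM in root, with ranges of 0.103 to 23.6 and 0 to 16.7. The 2 sets had stem medians closer to each other than their root medians were. The calls formed the sets, so these medians and the 43 of 46 without overlap are descriptions. The share without overlap over all genes was not computed.

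**Figure D4:**
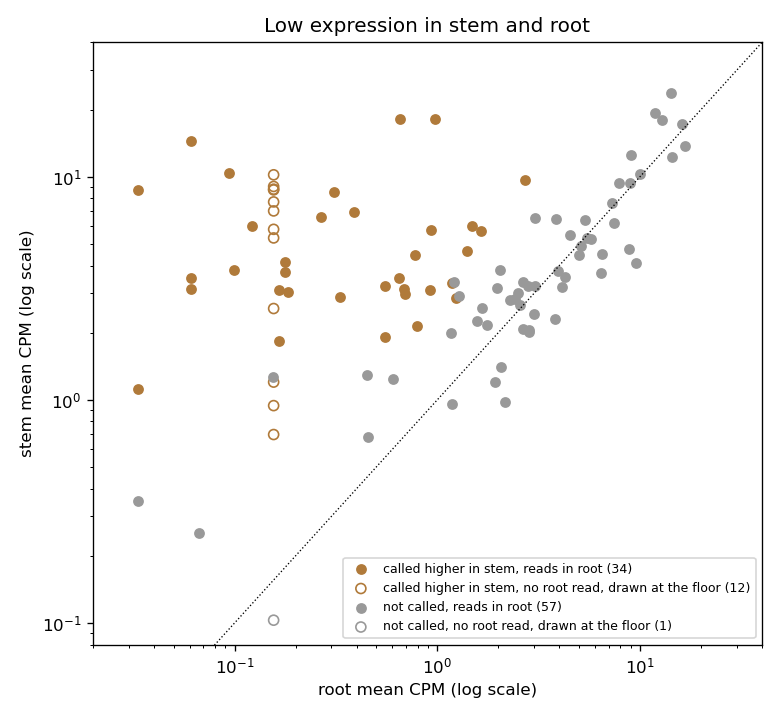
Stem mean CPM (y axis) against root mean CPM (x axis), both on log scales, for the 104 genes, with those called higher in stem in brown and those not called in grey. Open circles are the 13 genes with no root read, drawn at the root floor of 0.156 CPM, and filled points left of the floor had 1 to 3 root reads. Brown points spread above the dotted line of equal levels, and grey points follow it.

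No read was seen in root for 13 members, and 14 more had 1 to 3 reads over the 3 root libraries. No member was without reads in stem. For the 13, the lowest of the flower, leaf and shoot apex means was at least 71.2-fold to at least 436-fold above the root floor of 3 counts over the 3 libraries. Of the 27 members with at most 3 root reads, shoot apex held the highest of the 3 means in 21, flower in 3 and leaf in 3. Of the other 77, it was shoot apex in 36, leaf in 23 and flower in 18. The 3 root libraries had the smallest total of any tissue, and levels under the floor were not detectable at this depth.

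The largest stem to root differences were among the members with no root read. E3N88_34476 had 7.16, 8.11 and 15.3 CPM in stem and none in root, with an excess in stem of at least 65.5-fold (edgeR adjusted p = 2.16e-06). In the organs of high expression it was at 42.1 ± 3.12 CPM in flower, 49.2 ± 21.7 in leaf and 63.3 ± 3.799 in shoot apex (SD, n = 3 each). E3N88_03927 had 1.84, 6.16 and 19.1 CPM in stem and was without reads in root, a difference of at least 58.1-fold (edgeR adjusted p = 0.000126), with its stem libraries spread over a 10.4-fold range. E3N88_16944 had 4.41, 3.61 and 3.39 CPM in stem and 3 reads in root, a stem to root ratio of 22.4 (95% exact interval 7.40 to 111). Bounds and intervals cover counting error only. For the 23 members called with more than 3 root reads, the log2 fold change was 1.13 to 5.08, with a median of 2.33.

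The count of 46 was 41 without stem replicate 3 and 52 without root replicate 1, the widest range that leaving out 1 library gave. A fit to the 6 stem and root libraries alone called 30 higher and 2 lower, where 14.7% and 13.0% of the 21562 genes in that fit were, but its filter on low counts kept only 83 of the members. Without leaf replicate 1, stem replicate 3 and root replicate 1 together, 46 were called higher and 3 lower.

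Single stem and root libraries stood high in some of the members. Among the 96 members with a stem mean of at least 1 CPM, stem replicate 3 was the highest stem library in 69, 71.9%, against 63.6% of 21862 genes tested at that level. It was at least 2 times both other stem libraries in 25, 26.0%, against 10.7%. With TMM these were 64 of 98 members, 65.3%, against 44.3%, and 18 members, 18.4%, against 6.08%. The median member lay above its stem mean by 0.30 on the log2 scale in stem replicate 3 and below it in stem replicate 1, at -0.32, where the median of all genes was 0.01 and -0.01. The rule kept the members low in stem and root, while the genes compared held all levels from 1 CPM up. No match for level was made, and how far low counts add to these differences was not tested.

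In root, replicate 1 stood out. Of the 57 members with a root mean of at least 1 CPM it was the highest root library in 37, 64.9%, against 49.2% of 21986 genes. It was at least 4 times both other root libraries in 10, 17.5%, against 2.42% of genes. With TMM it was at least 4 times both others in 10 of 60 members, 16.7%, against 2.16%. These root shares were not matched for level either, and root replicate 1 had the most counts of the root libraries. E3N88_40710 had 37.1, 1.85 and 4.39 CPM in root replicates 1, 2 and 3, so that its root mean of 14.5 ± 19.7 CPM rested on 1 library, and 6.43, 8.11 and 22.1 CPM in stem. E3N88_08005 had 5.49, 0.794 and 0.183 CPM in root, a 30.03-fold range. In stem, E3N88_32875 had 1.29, 1.05 and 11.0 CPM. Of 55 members with at least 1 CPM in both stem and root, 23 were highest in both stem replicate 3 and root replicate 1 with TMM. Singly, stem replicate 3 was highest in 65.3% of 98 members and root replicate 1 in 60.0% of 60 with TMM. The share highest in both was not computed over all genes, so nothing is read from the 23. Whether these libraries held tissue of another organ was not tested.

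**Figure D5:**
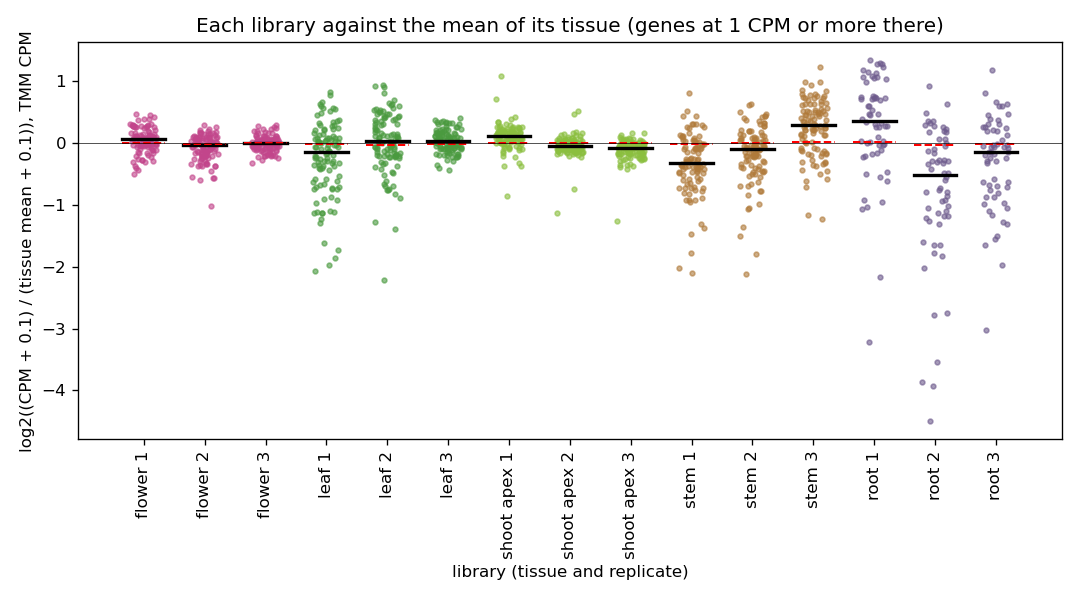
Log2 ratio of each library to the mean of its tissue (y axis, TMM-scaled CPM with 0.1 added) for the members that averaged 1 CPM or more in that tissue (points), with the median of the members as a black line and that of all genes tested as a red dashed line. The member median lies above the line for all genes in stem replicate 3, at 0.30, and root replicate 1, at 0.37, and below it in root replicate 2, at -0.52. The genes behind the red line were not matched to the members in level.

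Single libraries moved the number of IDs that met the rule. It was met by 144 IDs without stem replicate 3, 101 of them members, and by 117 without root replicate 1, 102 of them members. Without leaf replicate 1 it was met by 124 IDs, 96 of them members, and without leaf replicate 2 by 87, 85 of them members. Without all 3 libraries, 213 IDs met it, including 97 of the 104 members.

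In the organs of high expression the replicate spread of the members was close to that of other genes in flower and leaf. The median coefficient of variation was 11.9% in flower, 23.3% in leaf and 10.1% in shoot apex. Over all genes tested with at least 10 CPM in the tissue it was 11.2% in flower, 22.4% in leaf and 6.88% in shoot apex. In shoot apex, replicate 1 was the highest library in 75 of 104 members with TMM, 72.1%, against 39.0% of genes tested, with a median excess over the tissue mean of 0.12 on the log2 scale.

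Some members had consecutive ID numbers, although whether numbers follow genome order was not checked here. Of 206 IDs directly before or after a member, 8 were members, 3.88%, against 0.251% of all IDs. They formed 4 pairs. E3N88_01740 and E3N88_01741 had like levels, at 30.1 and 34.5 CPM in flower, 57.6 and 59.3 in leaf, 27.3 and 29.1 in shoot apex, 4.53 and 4.87 in stem and 6.47 and 5.11 in root. E3N88_08005 and E3N88_08006 were at 13.7 and 13.7 CPM in flower, 21.9 and 15.2 in leaf and 11.7 and 15.1 in shoot apex. They were less alike in stem, at 0.978 and 3.36 CPM, and in root, at 2.16 and 1.21 CPM. E3N88_17894 and E3N88_17895 differed more in flower and leaf, at 21.2 and 79.9 CPM in flower and 31.5 and 129.9 in leaf.

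The fourth pair lay in a denser stretch, described after its values were seen. Among 7 consecutive IDs, E3N88_34470, E3N88_34472, E3N88_34473 and E3N88_34476 were members, and none of the 4 had a root read. Their flower means were 34.8, 36.9, 46.3 and 42.1 CPM, their leaf means 34.2, 37.2, 42.1 and 49.2 CPM and their shoot apex means 75.1, 77.4, 75.7 and 63.3 CPM. Their stem means were 5.81, 5.32, 7.03 and 10.2 CPM. They were at least 37.3-, 34.1-, 45.1- and 65.5-fold above the root floor in stem. The 3 other IDs of the stretch held at most 9 reads in any tissue. The handling of reads that map to several places is not given in the sources used here, so if these or the paired IDs are near-identical copies, their counts could share reads.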

How the data were processed

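RNA-seq of 5 tissues with 3 libraries each was analysed. The authors deposited 1 table of whole-number read counts per gene ID, with 1 column per library. HISAT2 is named in the submitters' processing notes. Not given in the sources used here are its version, the tool that counted reads, the genome build, whether strand was used and how reads with several matches were treated.

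Counts were divided by column sums to give CPM. The members and lists were chosen with earlier results of these data known. All 15 libraries were fitted in edgeR 4.0.16 (R 4.3.3) with TMM factors, after filterByExpr, and tested with the quasi-likelihood F test (two-sided). Benjamini-Hochberg adjustment ran over the 27055 genes kept, and calls were made below an adjusted p of 0.05 at 2-fold or more. The 4 contrasts were flower minus leaf, flower minus shoot apex, leaf minus shoot apex and stem minus root. The script was tested on simulated data. A tissue with no read was set at a floor of 3 counts over its 3 libraries. Floors and the 95% exact interval cover counting error only.

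Named members were those with the highest lowest-of-3 mean, the largest ratio, the closest distance to each limit, the 2 largest changes per contrast and direction, the most even levels, the widest stem and root ranges, and those in the longest run of IDs. Exceptions are stated where they occur. Lists of photosynthesis, cuticle, root and vascular genes could not be matched to any ID. Alternatives were plain library totals, RLE factors, no filter, DESeq2 1.42.0, a fit to each pair of tissues, a replicate block, other limits of the rule, and each library left out. Leaving out 3 libraries together, and TMM scaling of the library order, were chosen after seeing the data. No 2 replicates of a tissue had counts that agreed within sampling noise.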

Additional observations from a re-analysis of the deposited data

How the results depend on the processing

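The summed root total was the smallest, which limits what low levels there can show, and the rule leaves members close to its limits. No named gene changed sign under any alternative run. The direction with more calls turned round with plain library totals for flower against leaf and for leaf against shoot apex. For leaf against shoot apex it also turned round without leaf replicate 1 (9 higher, 10 lower) and without root replicate 2 (8 and 9). Equal counts came without root replicate 1, at 9 and 9, and with some other alternatives. With plain library totals, members called were 5 higher and 4 lower in flower than leaf, 1 higher in flower than shoot apex, and 3 higher and 19 lower in leaf than shoot apex. The TMM counts were 3, 8, 3, 8 and 7. Without leaf replicate 1, stem replicate 3 and root replicate 1, a choice made after seeing the data, 14 were lower in flower than leaf, 13 higher in leaf than shoot apex and 3 lower in stem than root. The rule then chose 213 IDs. A fit to stem and root alone called 30 higher and 2 lower in stem, DESeq2 called 2 lower and RLE factors 1 lower, against 46 and 0. The members numbered 25 with an 8-fold limit, 65 with 20 CPM and 63 with a 2-fold span. The cause of these shifts was not tested.

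Leaving out 1 library at a time gave 1 to 4 members higher and 5 to 11 lower in flower than leaf, and 1 to 4 higher and 6 to 13 lower in flower than shoot apex. It gave 6 to 14 higher and 2 to 10 lower in leaf than shoot apex, 41 to 52 higher and 0 to 1 lower in stem than root, and 87 to 144 members. Leaving out a replicate number in every tissue gave 83 to 145 members. Of 308 values for named genes under the alternatives, 300 kept their call, and 8 lost it.

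With the replicate number as a block, the counts were 2 higher and 7 lower in flower than leaf, 3 and 11 in flower than shoot apex, 8 and 8 in leaf than shoot apex and 47 and 0 in stem than root. The labels give same-numbered libraries only a number in common, and whether they shared a plant or batch is not known. Of 30 same-numbered pairs, 3 had deviations correlated above 0.1, with a range of -0.20 to 0.22. Of 15 libraries, 4 correlated best with their own number. Deviations from means of 3 libraries cannot show whether a plant or batch was shared.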
